A study of Homo sapiens with 20 samples.

Results

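The insulin-like growth factor (IGF) axis was followed through the differentiation of HepaRG cells and through the addition and removal of dimethyl sulfoxide (DMSO). Its members here were the ligands IGF1 and IGF2, the acid-labile subunit IGFALS, the binding proteins IGFBP1, IGFBP2, IGFBP3, IGFBP4, IGFBP5 and IGFBP6, and the protease PAPPA. All probes whose accession maps to one of these symbols were taken, which gave 12 probes for 10 genes out of 35372 gene names on the array. IGF1 and IGF2 had 2 probes each and the other members 1. A member was tested if, in some condition, its probe was well above background on each of the 4 arrays, and 9 of the 10 were. IGF2 was not.

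HepaRG is a human hepatoma cell line, a single tumor-derived line whose progenitors differentiate in culture into hepatocyte-like and biliary-like cells. The data are 20 Agilent arrays read in a single color (Cy3), 4 for each of 5 conditions, from 4 independent experiments per the labels. D4 cells were progenitors collected at day 4 and D15 cells were collected at day 15, both without DMSO. D30 - DMSO cells stayed without DMSO until day 30, whereas D30 + DMSO cells received 2% DMSO after day 15. D34 +/- DMSO cells were treated like D30 + DMSO cells and then kept without DMSO for 4 days, until day 34. No cells were kept in DMSO until day 34, so removal and 4 more days of culture cannot be told apart. All groups share a medium with fetal bovine serum, hydrocortisone and insulin. Each group is a bulk culture of mixed cells.

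IGF1 and IGF2 are peptide hormones that act through the type 1 IGF receptor. In the circulation they are carried by binding proteins, mostly in a ternary complex of IGF, IGFBP3 or IGFBP5 and the acid-labile subunit, and the liver is the main source of circulating IGF1, IGFALS and several binding proteins. The binding proteins hold IGF away from its receptor, and PAPPA, a secreted metalloprotease, cleaves several of them, IGFBP2, IGFBP4 and IGFBP5 included, and so releases IGF.

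The 3 members IGF1, IGFBP6 and PAPPA changed over the 5 conditions by the F-test described further on, and the bases before their transcription start are shown for that reason. RefSeq promoter entries (build GRCh38.p14) were found for 8 of the 10 members. The 250 bases before the start are given 5′ to 3′ on the strand of the gene, in lower case, with matches in capitals to any of 8 short motifs searched on both strands: AP-1 (TGANTCA), the TATA box (TATAAA), the CCAAT box (CCAAT), the GC box (GGGCGG), the FOXO motif (GTAAACA), the FOXA motif (TGTTTGC), the TEAD motif (GGAATG) and the E-box (CACGTG). No matches overlap in the stretches shown. PAPPA lies at chr9:116153541-116153790 on the plus strand and IGFBP6 at chr12:53097417-53097666 on the plus strand. IGF1 has 2 starts on the minus strand, with upstream bases at chr12:102481748-102481997 for the outer start and chr12:102478551-102478800 for the inner one.
PAPPA: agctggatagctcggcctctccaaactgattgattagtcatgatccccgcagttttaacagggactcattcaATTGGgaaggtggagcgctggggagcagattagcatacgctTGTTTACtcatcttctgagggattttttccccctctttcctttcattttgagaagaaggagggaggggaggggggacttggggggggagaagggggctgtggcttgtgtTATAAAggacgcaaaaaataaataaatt
IGFBP6: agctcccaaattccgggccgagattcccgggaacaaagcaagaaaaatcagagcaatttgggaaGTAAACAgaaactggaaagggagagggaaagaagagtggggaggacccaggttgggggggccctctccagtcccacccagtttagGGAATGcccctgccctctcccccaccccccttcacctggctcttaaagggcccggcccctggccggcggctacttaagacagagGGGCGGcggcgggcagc
IGF1, outer start: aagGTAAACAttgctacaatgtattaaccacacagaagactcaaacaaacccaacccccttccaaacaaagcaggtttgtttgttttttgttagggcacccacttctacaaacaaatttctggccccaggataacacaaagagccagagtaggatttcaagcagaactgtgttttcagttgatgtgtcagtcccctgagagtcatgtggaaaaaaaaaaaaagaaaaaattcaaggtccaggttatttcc
IGF1, inner start: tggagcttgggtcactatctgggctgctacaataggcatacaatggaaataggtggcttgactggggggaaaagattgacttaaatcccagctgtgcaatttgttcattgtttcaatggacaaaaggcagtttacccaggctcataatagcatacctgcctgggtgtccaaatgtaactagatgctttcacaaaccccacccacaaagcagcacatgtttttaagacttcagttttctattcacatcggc

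PAPPA held a match to the TATA box 28 bases before its start, and IGFBP6 held a GC box 17 bases before its own. GTAAACA stood in the bases of PAPPA, of IGFBP6 and of the outer start of IGF1, at 137, 186 and 247 bases before the start counted from the first letter of the match. This motif was found in 2.98% of 35114 promoters of the same length, the TATA box in 3763 of them, the GC box in 42.6% and the CCAAT box in 32%. The match of FOXO in PAPPA lies on the opposite strand. AP-1 and the E-box matched in none of the 4 stretches, against 6.57% and 6.35% of all promoters, and TGTTTGC, the letters searched as FOXA, in none against 3.23%. These letters are close to TGTTTAC, which is GTAAACA read on the opposite strand. The matches therefore do not tell FOXO from FOXA sites. A TEAD match, found in 11.9% of promoters, stood in IGFBP6. These matches describe letters in the reference and no binding was measured.

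Signals were scaled to a common 75th percentile, 571 intensity units, so that a scaled signal of 571 lies at the 75th percentile of its array. Between 61.1% and 74.2% of the spots of an array were well above background, the 75th percentile lay between 407 and 766 units before scaling, and the number of arrays limits the precision. Hepatocyte markers were all well above background from D15 on, while EPCAM and CFTR, of the biliary and progenitor list, and COL1A2 and PDGFRB, of the mesenchymal list, were so on no array of any condition. In every condition 5 of 8 biliary and progenitor genes and 4 of 8 mesenchymal genes were well above background on all arrays. The array of D30 - DMSO replicate 4 stood apart for 4 members, as given beside their values. This array and those of slide 4 are left out as alternatives. Levels of different probes are not compared with each other.

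Conditions were compared in pairs with limma over the 20 arrays, and a gene was called at an adjusted p below 0.005 (Benjamini-Hochberg over 22214 genes) and a change of more than 2-fold. From D4 to D15, 2 of the 9 members tested rose (IGF1 and IGFBP2) against 5.79% of all genes, and 4 fell (IGFBP3, IGFBP4, IGFBP6 and PAPPA) against 3.7% of all genes. From D15 to D30 - DMSO no member was called, against 0.0045% of all genes called higher (1 gene) and 0% called lower. In D30 + DMSO against D30 - DMSO, 2 members fell (IGFBP6 and PAPPA) against 4.18% of all genes, and none rose against 1.73%. In D34 +/- DMSO against D30 + DMSO, the same genes, IGFBP6 and PAPPA, rose against 4.96% of all genes, and none fell against 2.1%. These last comparisons share the D30 + DMSO arrays. In D34 +/- DMSO against D30 - DMSO no member was called, against 1.31% of all genes higher and 0.212% lower. At an unadjusted p below 0.05, 1 of 9 members passed from D15 to D30 - DMSO, beside 2.98% of all genes, and 3 passed for D34 +/- DMSO against D30 - DMSO, beside 15.3%. Arrays of a slide resembled each other, and with the slide as a block 5, 0, 3, 3 and 0 members were called in the order of these comparisons. PAPPA was then not called from D4 to D15, while IGFBP3 was called lower with DMSO and IGFBP5 lower after its removal. The median log2 difference of the 9 members was -0.70 from D4 to D15 and -0.34 for DMSO addition, beside 0.04 and 0.04 over all genes.

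**Figure D1:**
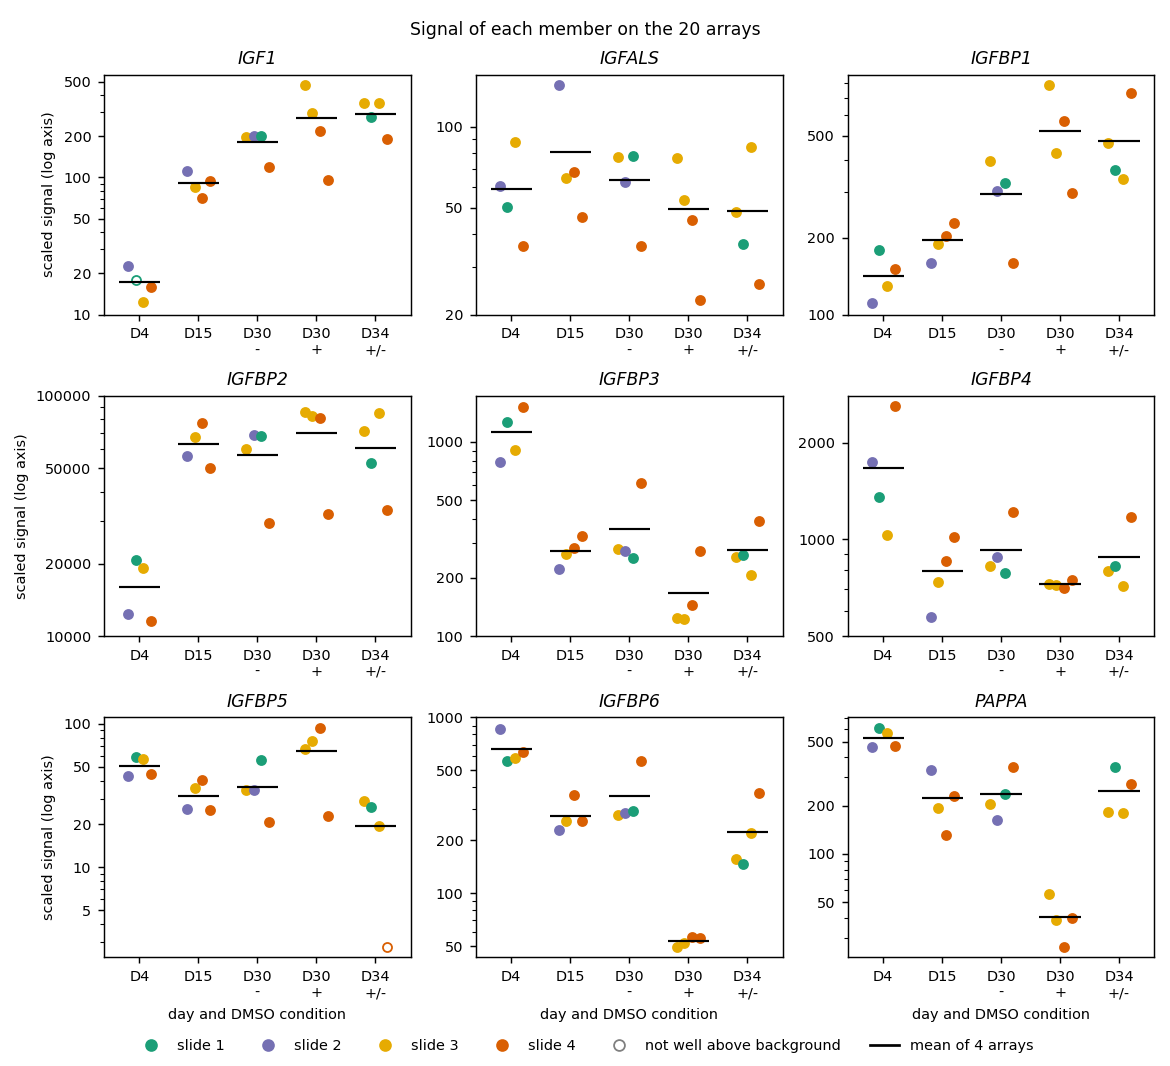
Scaled signal (log axis, intensity units) of the 9 tested members on each array, by condition, with 1 point per array colored by slide, a line at the mean of 4 arrays and hollow points where the probe was not well above background. PAPPA and IGFBP6 lie lowest in D30 + DMSO, at 26.5 to 56.2 and 49.7 to 56.4, below every other array, and IGF1 lies lowest at D4.

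IGF1, the main growth-promoting ligand made by hepatocytes, had a low signal in progenitors and rose by 5.31-fold at D15. Its signal was 22.6, 17.9, 12.4 and 15.9 in D4 replicates 1 to 4, and 112, 85, 70.7 and 93.8 at D15. The arrays of D4 all lay below those of D15, and in D4 replicate 2 the probe was not well above background. The log2 change was 2.41 ± 0.36 (SE, adjusted p = 4.89e-05), and within the 3 slides that hold both conditions it was 2.32, 2.78 and 2.35. After normexp background correction, which adds an offset of 50 to each signal, the rise was smaller, 2.06-fold (log2 1.04, adjusted p = 0.00226). In D30 - DMSO the signal was 197, 202, 202 and 120, again above every D15 array. This log2 difference of 0.98 ± 0.36 had an unadjusted p of 0.0135 and an adjusted p of 1, and was not called. In D30 + DMSO the values spread from 95.5 to 470 around a mean of 270 ± 157 (SD, n = 4), and in D34 +/- DMSO from 191 to 351. Neither addition (log2 0.40 ± 0.36, adjusted p = 0.549) nor removal of DMSO (0.29 ± 0.36, adjusted p = 0.677) moved IGF1 past the threshold, and the arrays of the 3 late conditions overlap. The lowest value of each late condition came from replicate 4, on slide 4.

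The second IGF1 probe, printed in 2 spots where the first has 10, gave a smaller difference. Its D4 signals were 5.25, 41, 10.5 and 7.89, with replicate 2 far above the others and just above the D15 range of 24.5 to 40.6. Its log2 change from D4 to D15 was 1.45 ± 0.55 (adjusted p = 0.0644 over all kept probes), which was not called. When spots flagged as outliers were kept, the change of the first probe was 1.83 with an adjusted p of 0.00761, so the call was lost.

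IGF2, the fetal ligand, was at the limit of the array. Its first probe read 10.8, 21.4, 9.19 and 3.25 in D30 - DMSO and between 0.54 and 10.4 at D4, and was well above background on 3 of 20 arrays. Its second probe read 4.98, 15.1, 20.1 and 6.04 in D30 + DMSO, where only replicate 2 was well above background, and at most 5.88 on every other array. No fold change is given for IGF2.

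IGFALS, the liver-made subunit that stabilises the ternary complex, was measured on all arrays without a called change. Its signal ranged from 22.6 to 143 over the 20 arrays, and the mean went from 58.7 ± 22 (SD, n = 4) at D4 to 80.4 ± 42.6 at D15 and 48.6 ± 25.1 in D34 +/- DMSO. All 5 conditions overlap. In each of the 5 conditions the lowest IGFALS value was that of replicate 4, on slide 4.

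IGFBP2 and IGFBP1, binding proteins that hepatocytes secrete, had higher mean signals in every later condition than at D4. IGFBP2 read 12300, 20800, 19200 and 11500 at D4 and 56300, 67300, 77200 and 50300 at D15. No array of D4 reached the lowest of D15, and the log2 change was 2.01 ± 0.35, a 4.02-fold rise (adjusted p = 0.000293), with 2.20, 1.81 and 2.43 within the slides. In the 3 later conditions it read 29500 to 85800, with no called difference between neighbouring conditions. The low values came from replicate 4, which read 29500 in D30 - DMSO, 32200 in D30 + DMSO and 33500 in D34 +/- DMSO, all on slide 4. Replicate 3 of D15 and of D30 + DMSO, also on slide 4, read 77200 and 81200.

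IGFBP1, whose secretion by the liver is suppressed by insulin, had its lowest mean at D4 and its highest in D30 + DMSO, without a called difference. It read 111, 178, 129 and 150 at D4 and 159, 188, 203 and 228 at D15, which overlap. It then read 397, 303, 327 and 159 in D30 - DMSO, 786, 429, 573 and 299 in D30 + DMSO, and 469, 368, 339 and 737 in D34 +/- DMSO. The largest difference between neighbours was that for DMSO addition, log2 0.80 ± 0.31 with an adjusted p of 0.0851, and its arrays overlap. The fold between the highest and lowest condition was 3.51, and every array of D30 + DMSO and D34 +/- DMSO lay above all D4 and D15 arrays. In the RefSeq table IGFBP1 and IGFBP3 are neighbours on chromosome 7, with 0 genes between them. Their log2 differences from D4 to D15 were 0.46 ± 0.31 for IGFBP1 (adjusted p = 0.342) and -2 ± 0.31 for IGFBP3. The neighbours IGFBP2 and IGFBP5 on chromosome 2 had 2.01 ± 0.35 and -0.70 ± 0.57, of which only the first was called.

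IGFBP3, the main carrier in plasma and a component of the ternary complex, fell by 3.99-fold between D4 and D15. It read 784, 1270, 910 and 1520 at D4 and 221, 266, 283 and 327 at D15, with no overlap (log2 -2 ± 0.31, adjusted p = 7.23e-05). The change was -1.83, -1.77 and -2.32 within the slides. In D30 - DMSO it read 281, 273, 251 and 614, where replicate 4 stood above the other arrays, and in D30 + DMSO 124, 123, 144 and 273. The log2 difference for DMSO was -1.07 ± 0.31 (adjusted p = 0.0191), which was not called because the p was above 0.005, and the groups overlap through D30 + DMSO replicate 4 alone. With the slide as a block it was -1.25 ± 0.21 with an adjusted p of 0.000406, which is past the threshold, and within slides 3 and 4 it was -1.18 and -1.63. Each of these slides holds 2 D30 + DMSO arrays and 1 D30 - DMSO array, which on slide 4 is replicate 4. The difference was -1.34 (adjusted p = 0.00395) without D30 + DMSO replicate 4 and -0.78 (adjusted p = 0.0733) without D30 - DMSO replicate 4. In D34 +/- DMSO the signal was 256, 262, 206 and 392, a log2 difference of 0.79 ± 0.31 from D30 + DMSO that was not called (adjusted p = 0.0773).

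IGFBP4, a binding protein that PAPPA cleaves, also fell from D4 to D15, by 2.02-fold. Its signals were 1740, 1350, 1030 and 2590 at D4 and 575, 738, 858 and 1020 at D15, and the groups touch without overlap. The log2 change was -1.02 ± 0.24 (adjusted p = 0.00427), close to both limits of the call, and it stayed called in 14 of 35 alternative settings. With the slide as a block it was -1.15 ± 0.18 (adjusted p = 0.000144). In the presence of DMSO the 4 arrays were tight, at 725, 721, 705 and 747, all below the D30 - DMSO range of 787 to 1220, with a log2 difference of -0.34 ± 0.24 (adjusted p = 0.422).

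IGFBP5, another PAPPA substrate, had low signals. It read 43.1, 59, 56.4 and 44.4 at D4 and 25.3, 35.5, 40.7 and 25 at D15, with no overlap but a log2 difference of only -0.70 ± 0.57 (adjusted p = 0.465). In D30 + DMSO it read 66.6, 75.9, 92.8 and 22.6 and in D34 +/- DMSO 28.8, 26.1, 19.4 and 2.8, the last of which was not well above background. The log2 difference after DMSO removal was -2.01 ± 0.57 (adjusted p = 0.0166), which was not called. Without D34 +/- DMSO replicate 4 the difference was -1.22 (adjusted p = 0.0357), without D30 + DMSO replicate 4 it was -2.45 (adjusted p = 0.00488), and with the slide as a block it was -2.34 with an adjusted p of 0.002, past the threshold.

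IGFBP6, a binding protein with a preference for IGF2, fell at D15, fell further with DMSO and rose after its removal. It read 859, 565, 589 and 639 at D4, 228, 259, 360 and 256 at D15, and 278, 285, 293 and 567 in D30 - DMSO. In D30 + DMSO it read 49.7, 51.9, 56.4 and 55.4, and in D34 +/- DMSO 157, 147, 220 and 373. The D30 + DMSO arrays were the most uniform and lay below every array of every other condition. The fall from D4 to D15 was 2.41-fold (log2 -1.27 ± 0.27, adjusted p = 0.00166), and this call was lost when D4 replicate 1 or D15 replicates 1, 2 or 4 were left out, with log2 changes of -1.24 to -1.13 and adjusted p up to 0.00835. The fall with DMSO was 6.36-fold (log2 -2.67 ± 0.27, adjusted p = 1.4e-06), and it was -2.45 and -3.34 within slides 3 and 4. The rise after removal was 3.92-fold (log2 1.97 ± 0.27, adjusted p = 2.67e-05), with 1.87 and 2.74 within these slides. On slide 4 the D30 - DMSO and D34 +/- DMSO values are each those of replicate 4 alone. After normexp correction both changes were smaller, a 3.25-fold fall with DMSO (log2 -1.7) and a 2.23-fold rise after its removal (log2 1.16), and both were called. D34 +/- DMSO differed from D30 - DMSO by -0.70 ± 0.27 on the log2 scale (adjusted p = 0.184), and the difference was -1, -0.58 and -0.60 within slides 1, 3 and 4. D30 - DMSO replicate 4, at 567, stood above the other arrays of its condition, and without it the log2 change with DMSO was -2.42 ± 0.25 (adjusted p = 4.35e-06).

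PAPPA, the protease, also fell at D15, fell with DMSO and rose after its removal. It read 464, 606, 571 and 471 at D4 and 332, 193, 131 and 231 at D15, a 2.5-fold fall with no overlap (log2 -1.32 ± 0.30, adjusted p = 0.00257). With the slide as a block the fall was -1.22 ± 0.31 with an adjusted p of 0.0057, which is not past the threshold, and the call was also lost without D4 replicates 1, 2 or 3 or D15 replicates 2, 3 or 4, each left out in turn (-1.38 to -1.09, adjusted p up to 0.0121). In D30 - DMSO it read 205, 162, 238 and 346 and in D30 + DMSO 56.2, 38.8, 26.5 and 40.2. The fall with DMSO was 5.86-fold (log2 -2.55 ± 0.30, adjusted p = 6.47e-06), and -2.14 and -3.41 within slides 3 and 4. After removal it read 183, 346, 180 and 273, a 6.06-fold rise (log2 2.60 ± 0.30, adjusted p = 3.86e-06), with 1.96 and 3.07 within these slides. Here too replicate 4 alone gives the D30 - DMSO and D34 +/- DMSO values of slide 4. After normexp correction the fall with DMSO was 2.51-fold (log2 -1.33) and the rise 2.67-fold (log2 1.42), both called but less than the reported folds. The D34 +/- DMSO arrays overlap with those of D30 - DMSO, and the difference between them was 0.05 ± 0.30 on the log2 scale (adjusted p = 0.995). All D34 +/- DMSO arrays lay below all D4 arrays.

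**Figure D2:**
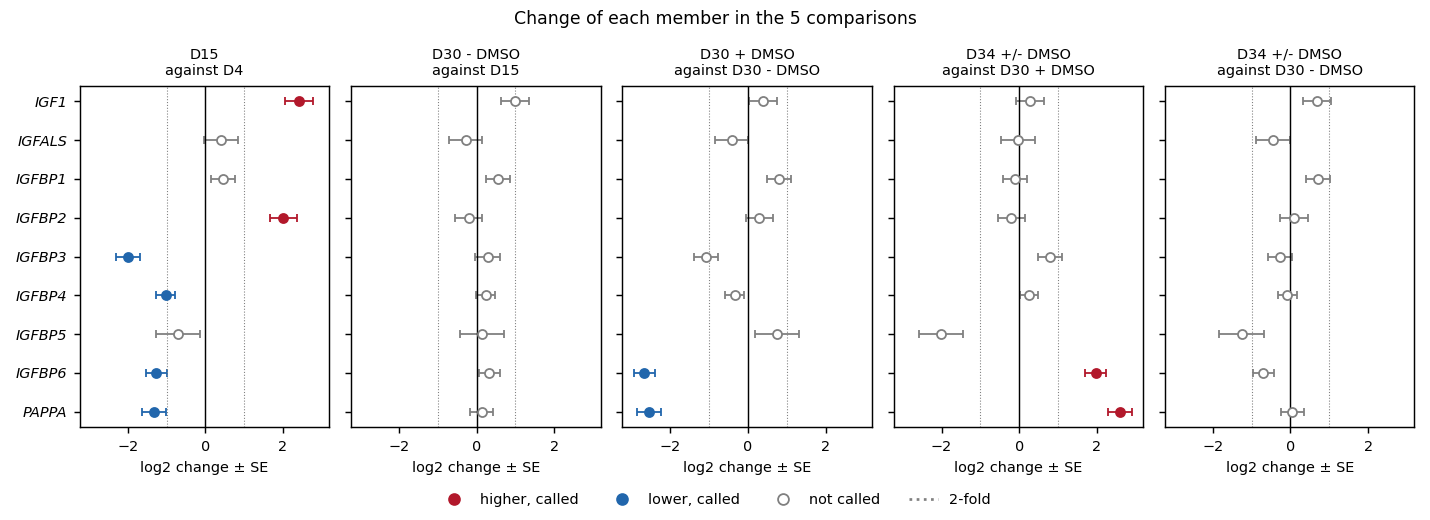
Log2 change ± SE of the 9 tested members in the 5 comparisons, with red and blue points for called rises and falls, hollow points for changes not called and dotted lines at 2-fold. IGFBP6 and PAPPA are called lower with DMSO (-2.67 and -2.55) and higher after its removal (1.97 and 2.60), and no member is called in the second and the last comparison.

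Lists of cell type and proliferation markers were read beside these members, and not all of them moved with the members. The summed signal of 8 proliferation markers was 13200 to 15900 at D4, 2290 to 4310 at D15, 2210 to 3410 in D30 + DMSO and 10400 to 15600 in D34 +/- DMSO, and all 8 were called higher after removal. It was 2950 to 4130 in D30 - DMSO, and 0 of the 8 were called for DMSO addition. The summed signal of 8 mesenchymal and stellate markers was 2390 to 3040 in D30 - DMSO and 1850 to 2100 in D30 + DMSO. In D34 +/- DMSO it was 2720 to 3790. It was lowest in the condition where IGFBP6 and PAPPA were lowest, with 0 of its 4 tested genes called in either comparison. Most of this sum was ACTA2 and DES, with means of 1620 and 799 in D30 - DMSO and 1110 and 680 in D30 + DMSO. TAGLN and COL1A1 had means of 108 and 85.4 in D30 - DMSO and 98.8 and 38 in D30 + DMSO. The same sum was 3500 to 6230 at D4 and 2340 to 2750 at D15, where IGFBP3, IGFBP4, IGFBP6 and PAPPA fell, and 2 of the 4 genes, TAGLN and COL1A1, were called lower (median log2 -1.37). SPP1, or osteopontin, of the biliary and progenitor list read 2800 to 3030 in D30 - DMSO, 597 to 1370 in D30 + DMSO and 3240 to 4540 in D34 +/- DMSO, called lower with DMSO and higher after its removal, but unlike PAPPA it was called higher from D4 to D15. SOX9 of the same list went the other way, at 60.5 to 80, 135 to 202 and 26.3 to 46.5 in these conditions. With DMSO and after its removal, 1 of the 5 tested genes of this list was called higher and 1 lower. The summed hepatocyte signal was 90700 to 188000 at D4 and 846000 to 1220000 at D15. It was 1070000 to 1150000 in D30 - DMSO and 1250000 to 1960000 in D30 + DMSO, with no overlap between these last. In D34 +/- DMSO it was 1060000 to 1330000, which overlaps both. The brightest genes weigh most in each of these sums. The part of the markers in the results was not tested. In these bulk cultures fewer cells of a type and less RNA per cell cannot be told apart. Of the 10 hepatocyte genes, 10 were called higher at D15 and 0 with DMSO (median log2 0.5).

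All 5 conditions were also compared at once with a moderated F-test, where a call needed a p below 0.001 after Bonferroni adjustment and a ratio above 3-fold of the highest to the lowest condition mean. It called 3 members, IGF1 (16.9-fold, adjusted p = 0.000146), IGFBP6 (12.3-fold, adjusted p = 4.66e-05) and PAPPA (13.4-fold, adjusted p = 0.000134), against 5.37% of all genes. IGFBP3 had a fold of 6.9 and an adjusted p of 0.0201. On slides 1 to 3 alone, only IGF1 was called, and with the slide as a block IGF1, IGFBP3 and IGFBP6 were, without PAPPA. IGF1 lost this call when D4 replicate 2, 3 or 4 was left out, and also after normexp correction, without the filter on dim probes, with the mean of its probes and with flagged spots kept. PAPPA lost it when D30 + DMSO replicate 2, 3 or 4 was left out. The analysis of variance of the methods called IGFBP6 alone.

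The rest of the pathway was read from a list of 38 genes, of which 33 were tested. From D4 to D15, 4 of the 33 rose, INSR, GRB14, GHR and PIK3R1, and 4 fell, IGFBP7, ADAM12, SOCS2 and H19. With DMSO, 0 rose and 2 fell, IGFBP7 and H19. After removal 2 rose, ADAM12 and H19, and 0 fell. None was called from D15 to D30 - DMSO or for D34 +/- DMSO against D30 - DMSO. These are 2 of 33 with DMSO and 2 of 33 after removal, near the 4.18% and 4.96% of all genes given above, and 4 of 33 each way from D4 to D15 beside 5.79% higher and 3.7% lower. The median log2 difference of the list was -0.13 from D4 to D15 and -0.07 with DMSO.

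Among the receptors, the type 1 receptor IGF1R read 406 to 459 at D4 and 218 to 344 at D15 (log2 -0.62 ± 0.18, adjusted p = 0.0169), not called. IGF2R, the clearance receptor for IGF2, did not pass in any comparison and its D15 to D4 difference was 0.02 ± 0.23 (adjusted p = 0.969). INSR, the insulin receptor, rose 2.69-fold at D15, from 487 to 632 at D4 to 1110 to 1930 (log2 1.43 ± 0.20, adjusted p = 1.99e-05). In D30 + DMSO it read 2320 to 2920, above all D30 - DMSO arrays at 1390 to 1960, but the log2 difference of 0.65 ± 0.20 was under 2-fold (adjusted p = 0.0251). GRB14, an adaptor that inhibits the insulin receptor, rose with it (log2 1.57 ± 0.27, adjusted p = 0.000194), and so did GHR, the growth hormone receptor upstream of IGF1 in the liver (1.07 ± 0.17, adjusted p = 0.000131). PIK3R1, the regulatory subunit of PI3-kinase, rose by 1.11 on the same scale (adjusted p = 2.34e-06). For SOCS2, which limits growth hormone signalling, the log2 change was -1.16 (adjusted p = 1.77e-05), a fall.

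Of the list, IGFBP7 and H19 fell with DMSO, and H19 rose after its removal. IGFBP7, a related binding protein with low affinity for IGF, read 40300 to 54300 at D4, 19500 to 22500 at D15, 13500 to 14900 in D30 - DMSO, 5090 to 5930 in D30 + DMSO and 9570 to 12100 in D34 +/- DMSO. No 2 of these ranges overlap. Its fall with DMSO was log2 -1.36 ± 0.12 (adjusted p = 3.36e-07), and its rise after removal was 0.97 ± 0.12 (adjusted p = 9.77e-06), just under 2-fold and so not called. H19, a non-coding RNA of the imprinted locus that also holds IGF2, read 362 to 894 in D30 - DMSO, 24.1 to 99.2 in D30 + DMSO and 489 to 930 in D34 +/- DMSO. It had fallen at D15 too (log2 -1.66 ± 0.40, adjusted p = 0.00433), a call kept in 16 of 35 alternative settings. Its fall with DMSO was log2 -3.12 ± 0.40 (adjusted p = 1.76e-05) and its rise 3.27 ± 0.40 (adjusted p = 7.67e-06), which were -2.06 and 2.23 after normexp correction and -2.4 and 2.58 on slides 1 to 3. IGF2 itself, measured at the limit of the array, gives no level to set beside it.

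Of the other proteases and inhibitors, ADAM12, which cleaves IGFBP3 and IGFBP5, read 268 to 647 at D4 and 42.8 to 91 at D15, a 6.93-fold fall (adjusted p = 2.97e-07) that was 3.81-fold after normexp correction and 4.49-fold with the mean of all its probes. It rose after removal of DMSO to 122 to 166 (log2 1.64 ± 0.27, adjusted p = 0.000189), above the D30 - DMSO range of 43.6 to 84.2. With the mean of all its probes this rise was 0.89 (adjusted p = 0.0102) and after normexp correction 0.8 (adjusted p = 0.00222), neither of which was called, and with the slide as a block its difference from D30 - DMSO was 1.28 ± 0.15 (adjusted p = 4.29e-05). PAPPA2, the other pappalysin, was well above background on no array. STC1 and STC2, stanniocalcins that bind and inhibit PAPPA, were dim. STC2 read 27.4 to 42.4 at D4 and 10.9 to 22.9 at D15 (log2 -0.99 ± 0.27, adjusted p = 0.0112), and STC1 read at most 21.7 on any array.

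**Figure D3:**
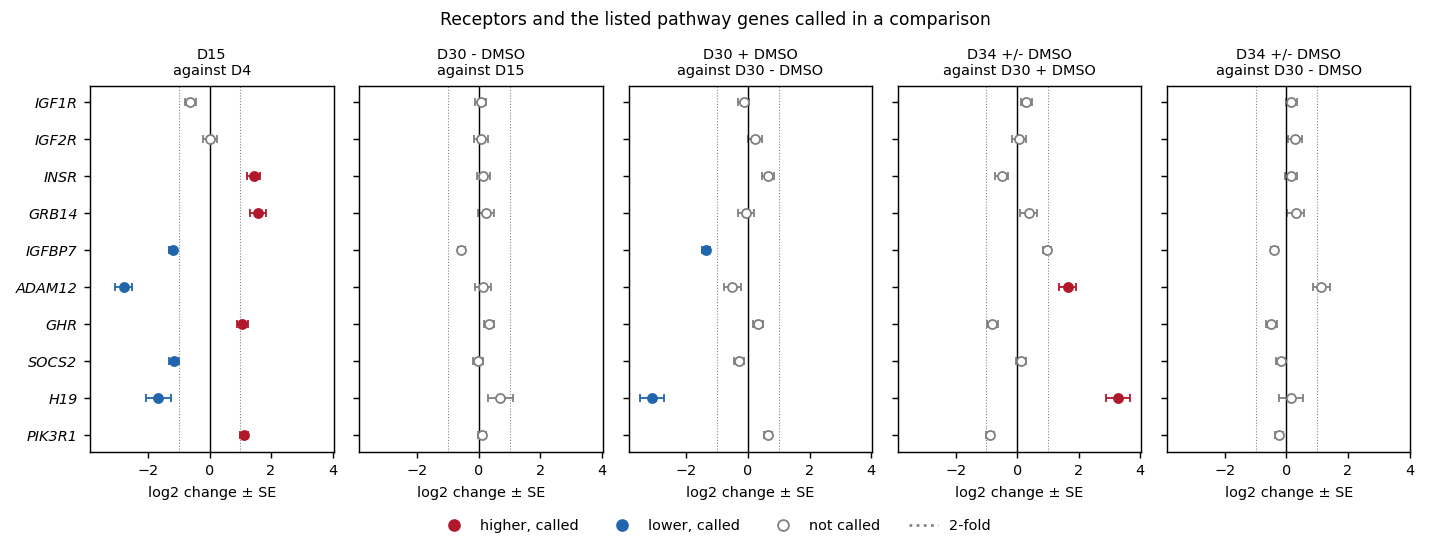
Log2 change ± SE of IGF1R, IGF2R and the 8 listed pathway genes called in at least 1 comparison, with red and blue points for called rises and falls and dotted lines at 2-fold. H19 is called lower with DMSO (-3.12) and higher after removal (3.27), and the receptors IGF1R and IGF2R stay between the 2-fold lines in all 5 comparisons.

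The gene whose log2 values were most like those of each member was taken over the 20 arrays, as a description in which the points share their conditions and slides. PAPPA was most like ABR (Pearson r = 0.963), IL7R (0.96) and LIF (0.958), and IGFBP6 most like CCBE1 (0.975). IGF1 was most like F7, coagulation factor VII (0.979), IGFBP2 like AIFM1 (0.961), IGFBP3 like TPM1 (0.96), IGFBP1 like SHMT2 (0.864) and IGFBP5 like SLC25A36 (0.859). The nearest probes to IGFALS (0.903) and IGFBP4 (0.937) have no current gene symbol. Between members, IGFBP6 and PAPPA correlated at 0.90 over the 20 arrays and at -0.02 once each condition's mean was taken off. IGFBP2 and IGFBP3 correlated at -0.91, and at -0.78 within conditions. In every condition the replicate 4 array had the lowest IGFBP2 and the highest IGFBP3 value. The correlation without these arrays was not computed.

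**Figure D4:**
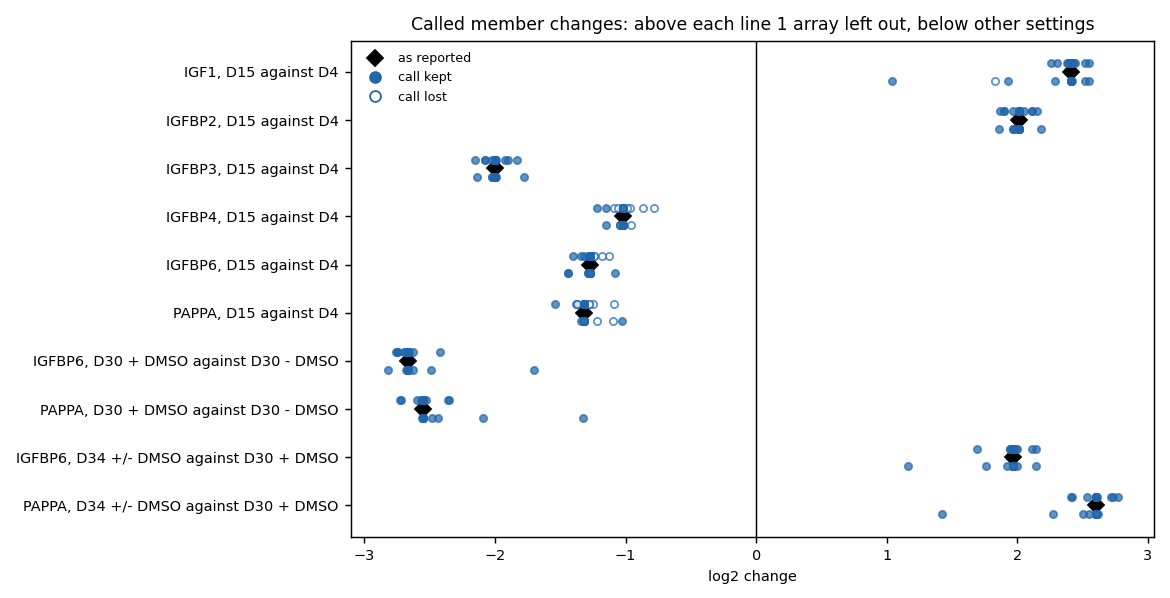
Log2 change of the 10 called member changes as reported (diamonds), with 1 array left out (points above) and under the other settings (points below), hollow where the call was lost. The changes with DMSO and after its removal keep their sign in every setting, while IGFBP4 from D4 to D15 keeps its call in 14 of 35.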

How the data were processed

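RNA of HepaRG cells was measured on 20 one-color Agilent 8x60K arrays, 4 per condition. For each array the authors deposited a Feature Extraction 10.7.1.1 scanner file (version per the file headers), in which the processed intensity has its background taken off and is not scaled between arrays, with median spot and background intensities and flags. A table of log2 values on a relative scale was deposited as well.

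Here, spots flagged as outliers were dropped, spots of one probe averaged, and log2 taken of signals scaled to the 75th percentile of the non-control spots, with a floor of 1. Probes stayed in if the 4 arrays of some condition all had them well above background, which left 26531 of 42405, named through RefSeq accessions (24826 probes), and each of 22214 genes was read from its brightest probe by mean. One linear model with 5 condition means was fitted over the 20 arrays (R 4.3.3, limma 3.58.1). A call needed, for a pair of conditions, a change over 2-fold with p below 0.005 after Benjamini-Hochberg adjustment, and in the F-test a range over 3-fold with p below 0.001 after Bonferroni adjustment. No set test was made. In simulated data with 200 of 21991 genes changed 4-fold, 83.5% were recovered for DMSO addition and 3 unchanged genes were called. The simulated noise was independent between arrays, without the likeness of arrays of a slide. It therefore does not give the error rate for the real arrays.

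The alternatives were quantile normalization, normexp with an offset of 50, the authors' matrix values, no filter, a filter for all 20 arrays, every kept probe, the mean of a gene's probes, a floor of 10, a block for the slide, a block for the replicate number, the methods' t-test and analysis of variance, a fit of the compared arrays alone, an adjusted p below 0.05, and each array left out. Slides 1 to 3 alone, flagged spots kept, and all settings for the pathway list were added after seeing the data. The 4 slides each hold several conditions, but not evenly. Slides 1 and 2 hold no D30 + DMSO array, slide 1 no D15 array and slide 2 no D34 +/- DMSO array. Condition and slide are therefore partly mixed in the comparisons with D30 + DMSO. Deviations from the condition means correlated at a median of 0.387 between arrays of a slide (44 pairs, all above 0.1) and at -0.179 between slides. Same-numbered replicates correlated at a median of 0.274, with 27 of 40 pairs above 0.1, and differently numbered ones at -0.169 (43 of 120 pairs above 0.1). Neither the slide nor the replicate number is in the reported model, although likeness by both was seen. Each was used as a block in an alternative. With either block IGFBP3 was called lower with DMSO and IGFBP5 lower after its removal, which the reported model did not call.

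Named were all members, fixed genes of the pathway list and any called in a comparison, and the genes most like each member. Members and lists were chosen with earlier results of these data known. Promoter bases are RefSeq's in GRCh38.p14. The array files name hg19, and no coordinates were taken across builds. Probe sequences were not used here.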

Additional observations from a re-analysis of the deposited data

Results flagged for a closer look

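In 60 groups of 4 arrays, 12 probes in 5 conditions, 7 values stood apart by the gap to their nearest neighbour as a share of the range, both on the log2 scale (Dixon's test at the 95% limit for 4 values), where chance flags about 1 in 20 groups. D30 - DMSO replicate 4 accounts for 4 of them. It was low for IGF1 (0.952, signal 120 against 197 to 202 in the others) and for IGFBP2 (0.833, 29500 against 60000 to 69100), and high for IGFBP3 (0.873, 614 against 251 to 281) and for IGFBP6 (0.929, 567 against 278 to 293). D30 + DMSO replicate 4 was low for IGFBP2 (0.944, 32200 against 81200 to 85800). D34 +/- DMSO replicate 4 was low for IGFBP5 (0.83, 2.8 against 19.4 to 28.8), where the probe was not well above background. All these replicate 4 arrays lie on slide 4, which also holds replicate 3 of D15 and of D30 + DMSO, neither of them flagged. D15 replicate 1 was high for the first IGF2 probe (0.914, 20 against 2.84 to 3.36), with no D15 array well above background. What sets these arrays apart was not tested.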

How the results depend on the processing

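Each result was recomputed under 35 alternatives, 20 of which leave out 1 array, and no called change turned its sign. Of the 10 called member changes, those of IGFBP2 and IGFBP3 from D4 to D15 and those of IGFBP6 and PAPPA with DMSO were called in all 35. The rises of IGFBP6 and PAPPA after removal were called in 34, IGF1 in 33 of the 34 that give it a value (it is not well above background on all 20 arrays), IGFBP6 from D4 to D15 in 30, PAPPA in 24 and IGFBP4 in 14. Leaving out D4 replicate 1 or D15 replicate 2 left 3 members called from D4 to D15, IGF1, IGFBP2 and IGFBP3, with IGFBP6 at -1.13 and -1.24, PAPPA at -1.38 and -1.28 and IGFBP4 at -0.97 and -0.99. The call of PAPPA was also lost without D4 replicates 2 or 3 or D15 replicates 3 or 4 (-1.37 to -1.09), that of IGFBP6 without D15 replicates 1 or 4 (-1.24 to -1.18), and that of IGFBP4 without D4 replicates 2 or 4 or D15 replicates 1 or 3 (-1.09 to -0.78), and without most arrays of the late conditions, which move only its adjusted p.

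With 1 array left out, the members called were 3 to 6 from D4 to D15, 2 to 3 with DMSO, 2 to 3 after removal, 0 in the other comparisons, and 2 to 3 over the 5 conditions, and the pathway genes called were 6 to 8, 0, 2 to 2, 2 to 3 and 0 to 1 in the order of the comparisons. The methods' t-test with adjustment called 3 members from D4 to D15 and 0 after removal (adjusted p = 0.0113 for IGFBP6 and 0.00551 for PAPPA), and its analysis of variance called 1, IGFBP6. For the pathway list it called 5, 1 and 1 gene from D4 to D15, with DMSO and after removal. After removal the mean of all probes of a gene called 1 pathway gene, H19. For D34 +/- DMSO against D30 - DMSO, 1 pathway gene, ADAM12, was called under quantile normalization, the slide block and the replicate block, and 2 at an adjusted p below 0.05. Slides 1 to 3 alone, with fewer arrays, left 1 member changed over the 5 conditions. No member was called from D15 to D30 - DMSO or for D34 +/- DMSO against D30 - DMSO under any alternative.

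Under the replicate block, 6, 0, 3, 3 and 0 members were called in the order of the comparisons and 4 over the conditions, with IGFBP3 added. It added IGFBP3 with DMSO (-1.07, adjusted p = 0.000195) and IGFBP5 after removal (-2.01, adjusted p = 0.00147), and its calls over all genes stayed within 1.5 times of those without it.

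Over all genes, calls fell from 2108, 1314 and 1568 from D4 to D15, with DMSO and after removal to 1398, 669 and 862 with normexp and to 1105, 581 and 490 with the methods' t-test. For D34 +/- DMSO against D30 - DMSO they fell from 338 to 171 in a fit of only these conditions and to 41 with the t-test. For the F-test, 1194 genes became 1803 at an adjusted p below 0.05 and 536 on slides 1 to 3. From D15 to D30 - DMSO they lay between 0 and 10. IGF2 was well above background on too few arrays to be tested, and IGFBP5, STC1 and STC2 were dim.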
